A study of Homo sapiens with 2 samples.

Results

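RUNX2 and MTA1 peaks were examined at 9 human genes whose products act as RNA and are known from the biology of cancer: NEAT1, MALAT1, MIR21, MIR22HG, MIR17HG, MIR155HG, MIR100HG, SNHG1 and GAS5. The genes were chosen by name from the 59679 genes of the RefSeq annotation of GRCh38.p14 on chromosomes 1 to 22, X and Y. A peak belonged to a gene when it lay inside the annotated span or within 20 kb of it. All 9 genes had at least 1 peak in each list, with 48 RUNX2 and 42 MTA1 peaks in total, and no peak was counted for more than 1 gene.

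The peaks came from 2 CUT&Tag libraries of MDA-MB-231, a triple-negative breast cancer cell line, with no treatment given in the labels. In CUT&Tag a transposase is guided by an antibody to the chromatin that carries the target protein, and the DNA it cuts there is sequenced. The first library used an antibody against RUNX2, a transcription factor of bone development, and the other used an antibody against MTA1, a subunit of the NuRD complex, which remodels nucleosomes and deacetylates histones. Each antibody had 1 library and a control library was not analysed here, so no value has a replicate, no p-value is given, and intervals cover counting error over peaks only. The labels name a different supplier for both antibodies than the methods of the study do, and they describe adaptor ligation with gel selection, which is not the usual CUT&Tag preparation, so the antibody products and the preparation are uncertain.

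Once mitochondrial peaks were left out, 61700 RUNX2 and 42683 MTA1 peaks remained. The median width was 151 and 185 bp and the median score 6.70 and 7.58. The scale of the score is not stated, so each peak is given with its rank, the percentage of peaks of its own list that scored lower. The number of reads behind each list is unknown, and a missing peak can be a weak signal as well as an absent one.

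Long noncoding RNAs act without being translated. NEAT1 builds nuclear paraspeckles, and MALAT1 lies in nuclear speckles and influences splicing. A host gene carries a small RNA inside its transcript: microRNA hosts are cut into hairpins and then into mature microRNAs of the RNA-induced silencing complex, which pair with target messages mainly through the seed, and snoRNA hosts release from their introns the small nucleolar RNAs that guide modification of ribosomal RNA. MIR21 and the miR-17-92 cluster of MIR17HG are known as oncogenic microRNAs, miR-155 is best known from lymphoid cells, and GAS5 was named for its rise in growth-arrested cells.

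The 9 genes hold 14 hairpins, and RefSeq lists 24 mature microRNAs with 21 different seeds for them, out of 2370 mature microRNAs in its table. The table used lists no mature strand for the MIR612 hairpin inside NEAT1 and only the 5p strand for MIR21. The mature strands usually taken as the main products are shown, 5′ to 3′, because they are the known products of these loci. The capitals mark the seed, bases 2 to 8.
hsa-miR-21-5p: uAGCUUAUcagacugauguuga
hsa-miR-22-3p: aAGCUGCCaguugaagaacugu
hsa-miR-155-5p: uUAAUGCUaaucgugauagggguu
hsa-miR-17-5p: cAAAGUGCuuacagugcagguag
hsa-miR-20a-5p: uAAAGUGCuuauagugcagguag
hsa-miR-18a-5p: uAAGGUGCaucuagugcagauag
hsa-miR-19a-3p: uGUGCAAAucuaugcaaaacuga
hsa-miR-19b-3p: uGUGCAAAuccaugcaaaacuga
hsa-miR-92a-3p: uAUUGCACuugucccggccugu
hsa-miR-125b-5p: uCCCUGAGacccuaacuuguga
hsa-let-7a-5p: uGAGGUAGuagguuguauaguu
hsa-miR-100-5p: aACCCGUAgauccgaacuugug
The first sequence comes from MIR21, the next from MIR22HG and the next from MIR155HG. The following 6 come from MIR17HG and the last 3 from MIR100HG. Within the cluster of MIR17HG, miR-17-5p and miR-20a-5p shared the seed AAAGUGC, which 8 mature microRNAs of the table carried, and miR-19a-3p and miR-19b-3p shared GUGCAAA, which 2 carried. The seed of let-7a-5p was the most widely shared of the 12, with 11 mature microRNAs. The bases coding for miR-155-5p at chr21:25573983-25574006 (GRCh38.p14, plus strand) were the only ones among the 12 that lay under a peak, and both lists had a peak there.

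Each of the 9 genes was reached by both lists and had at least 1 place where a RUNX2 and an MTA1 peak overlapped by at least 1 bp. Among all annotated genes 66.3% had a RUNX2 peak under the same rule, 57.8% an MTA1 peak and 48.5% overlapping peaks. Among the 18303 lncRNA genes the shares were 65.2%, 54.0% and 43.2%. With 9 genes picked by name the difference from these shares was not tested.

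Peaks were also dense around most of the genes. The median was 9.56 RUNX2 and 6.83 MTA1 peaks per 100 kb of window, against 2.14 and 1.23 for lncRNA genes and 3.57 and 2.48 for protein-coding genes. Among lncRNA genes of 2 to 25 kb the medians were 2.20 and 1.72. Over the summed windows of the 9 genes the density was lower than their median, at 5.855 RUNX2 and 5.123 MTA1 peaks per 100 kb. Among the 9, MALAT1 was the densest, with 16.4 peaks per 100 kb in each list, and more than 99% of lncRNA genes had a lower density in both lists (99.3% for RUNX2 and 99.6% for MTA1). MIR155HG was the sparsest for RUNX2 at 1.89 peaks per 100 kb and MIR100HG for MTA1 at 1.84, both near the middle of the lncRNA genes. The 9 genes thus ran from the middle of the lncRNA genes (45.5% of them had a lower RUNX2 density than MIR155HG) to near the top, and were not a uniform group. Their regions differed as well: the 5 Mb either side held 628 RUNX2 peaks at MALAT1 and 69 at MIR155HG. At MIR21, MIR22HG and MIR100HG these counts were 373, 349 and 354, with RUNX2 densities of 15.0, 15.7 and 2.99 per 100 kb. Density relative to the region was not tested, so the medians are not read as a trait of the 9 genes.

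Strong peaks were present at 6 of the 9 genes in each list. A RUNX2 peak in the top 10% of the list lay at NEAT1, MIR21, MIR22HG, MIR100HG, SNHG1 and GAS5, while 14.5% of lncRNA genes had such a peak. For MTA1 the genes were NEAT1, MALAT1, MIR21, MIR22HG, SNHG1 and GAS5, against 11.6% of lncRNA genes. MIR17HG and MIR155HG had no peak of this height in either list. Among the 11666 lncRNA genes of 2 to 25 kb, a span closer to that of most of the 9, the shares were 14.0% and 11.3%. Protein-coding genes had such a peak more often, in 27.3% (RUNX2) and 28.1% (MTA1), and all annotated genes in 16.9% and 16.0%. Those shares bear on SNHG1, MIR22HG and GAS5, where the strong peaks also lay over the start of a protein-coding neighbour.

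**Figure D1:**
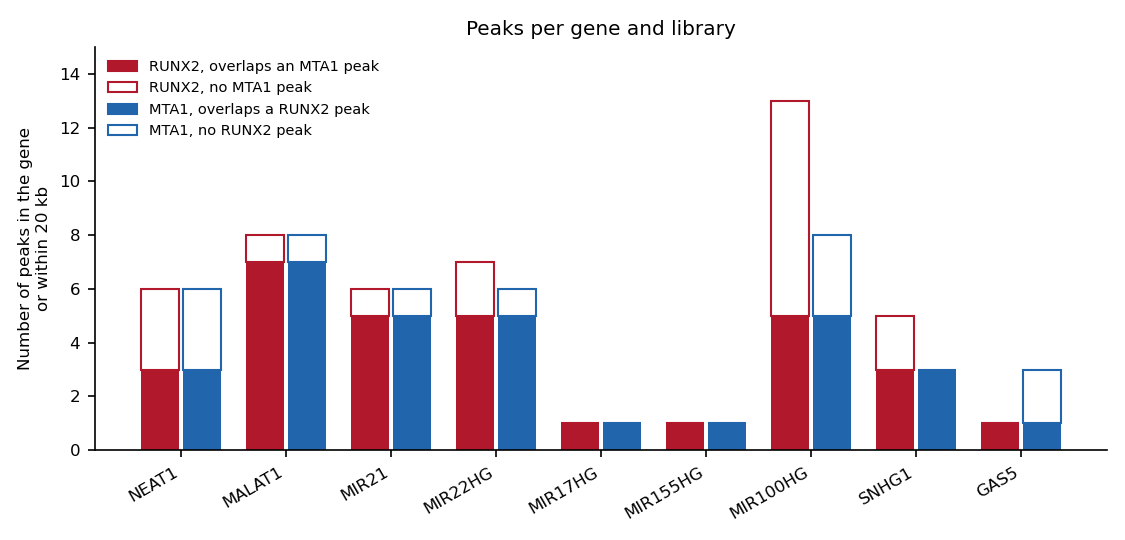
Number of peaks (vertical axis) inside or within 20 kb of each of the 9 genes in the RUNX2 (red) and MTA1 (blue) libraries, 1 library each. Filled parts are peaks that overlap a peak of the other list: all 9 genes have a filled part in both bars, and MIR100HG has the most peaks, 13 for RUNX2 and 8 for MTA1.

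**Figure D2:**
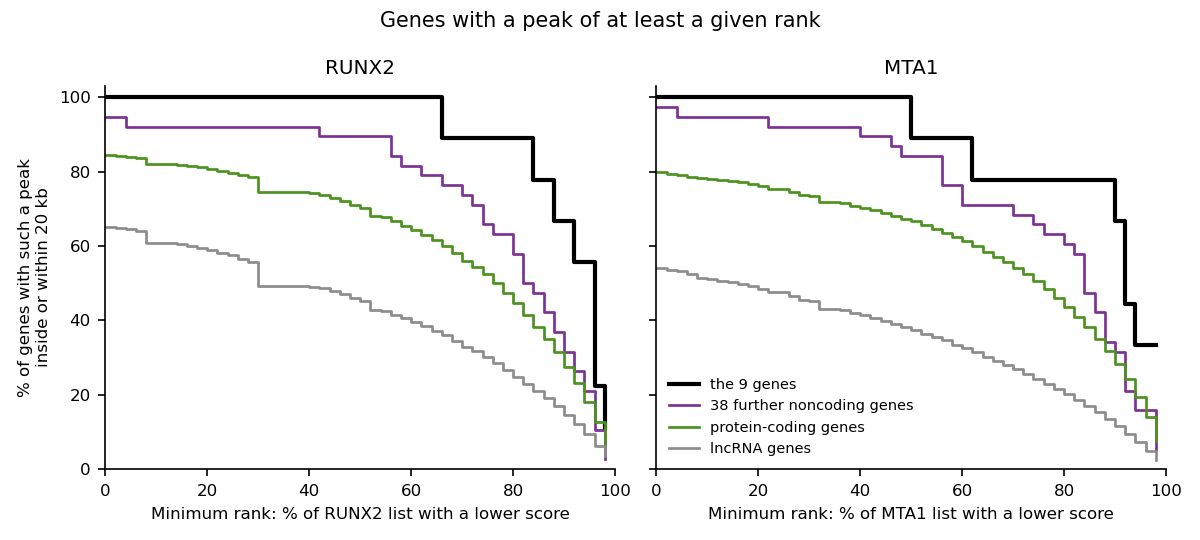
Percentage of genes (vertical axis) with a peak inside or within 20 kb whose rank in its list reaches the value on the horizontal axis. Lines show the 9 genes, a further list of 38 genes known for noncoding RNAs, 20037 protein-coding genes and 18303 lncRNA genes. The line of the 9 genes lies above the lncRNA line throughout the range drawn.

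The starts of the genes were examined next. The promoter table gives starts for 7 of the 9 genes (not for NEAT1 and MIR21). A RUNX2 peak lay within 1 kb of a start in 5 of the 7, an MTA1 peak in 6 and overlapping peaks in 5, against 23.1%, 21.7% and 17.6% of the 11462 lncRNA genes with a start. The 5 genes were MALAT1, MIR22HG, MIR17HG, SNHG1 and GAS5. At MIR22HG, SNHG1 and GAS5 the start of a protein-coding neighbour lay under the same peaks. The shares of lncRNA genes are therefore not a like background for them. Shares for the starts of protein-coding genes were not taken, and the difference was not tested. MIR100HG had a weak MTA1 peak alone over 1 of its 6 starts, and the start of MIR155HG was 11.7 kb from the nearest RUNX2 peak.

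Of the 13 promoter windows of these 7 genes (250 bp before to 50 bp after a start), 4 were covered at least in part by peaks of both lists. They are shown in the direction of transcription, from RefSeq GRCh38.p14, because the overlapping peaks sit on them: SNHG1 at chr11:62855836-62856135 (minus strand), MIR17HG at chr13:91347437-91347736 (plus), MIR22HG at chr17:1716161-1716460 (minus) and MALAT1 at chr11:65497488-65497787 (plus). The capitals mark the letters TGTGGT or TGCGGT on either strand, a core that RUNX proteins are known to bind.
SNHG1 promoter: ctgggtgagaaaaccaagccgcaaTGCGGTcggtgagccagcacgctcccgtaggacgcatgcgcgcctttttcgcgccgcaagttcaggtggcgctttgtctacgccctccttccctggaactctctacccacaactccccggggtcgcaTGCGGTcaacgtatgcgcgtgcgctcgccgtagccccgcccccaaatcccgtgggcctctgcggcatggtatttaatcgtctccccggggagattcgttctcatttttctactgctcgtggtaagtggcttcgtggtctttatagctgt
MIR17HG promoter: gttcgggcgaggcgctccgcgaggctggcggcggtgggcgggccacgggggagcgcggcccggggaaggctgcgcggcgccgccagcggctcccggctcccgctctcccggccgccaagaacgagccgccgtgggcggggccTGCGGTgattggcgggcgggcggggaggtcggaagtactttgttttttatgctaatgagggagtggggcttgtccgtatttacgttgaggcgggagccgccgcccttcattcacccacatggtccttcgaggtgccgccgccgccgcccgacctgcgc
MIR22HG promoter: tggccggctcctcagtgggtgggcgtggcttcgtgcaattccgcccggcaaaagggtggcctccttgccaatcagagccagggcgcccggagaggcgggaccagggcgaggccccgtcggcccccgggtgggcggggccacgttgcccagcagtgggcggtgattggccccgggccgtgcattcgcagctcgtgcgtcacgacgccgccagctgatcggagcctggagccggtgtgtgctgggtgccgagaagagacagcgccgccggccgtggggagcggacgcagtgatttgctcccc
MALAT1 promoter: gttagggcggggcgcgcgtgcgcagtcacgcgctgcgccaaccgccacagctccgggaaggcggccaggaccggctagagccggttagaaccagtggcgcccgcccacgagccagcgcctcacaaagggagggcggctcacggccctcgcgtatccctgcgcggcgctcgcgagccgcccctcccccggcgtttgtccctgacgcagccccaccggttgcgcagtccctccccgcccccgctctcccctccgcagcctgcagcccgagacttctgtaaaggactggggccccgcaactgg
The RUNX2 and MTA1 peaks both covered all 300 bases of the MALAT1 window, 244 bases of the SNHG1 window, 238 of the MIR22HG window and 136 of the MIR17HG window. These 4 windows were rich in GC (60.0% to 73.7%) and in CpG (30 to 42 CpG dinucleotides). The 8 windows under no peak had 37.7% to 56.0% GC and 2 to 20 CpG, and the window under a single MTA1 peak at MIR100HG had 49.0% and 4. Over all 35116 promoter windows the medians were 58.7% GC and 14 CpG. With 13 windows from 7 genes, 6 of them from MIR100HG, this is a description and was not tested. The share of all promoter windows covered by peaks of both lists was not taken.

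The motif letters were found in 5 of the 13 windows, and 19.6% of all promoter windows hold them (TGTGGT 13.1%, TGCGGT 7.29%). SNHG1 had TGCGGT at 2 places, with first bases 226 and 99 bases before the start, and both places lay under both peaks. MIR17HG had TGCGGT 108 bases before the start, inside the RUNX2 peak and outside the narrower MTA1 peak. The other 3 windows with the letters, at GAS5, MIR100HG and the downstream start of MALAT1, had no peak over them. A match of these letters is a description of the sequence and not a binding site shown by these data.

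**Figure D3:**
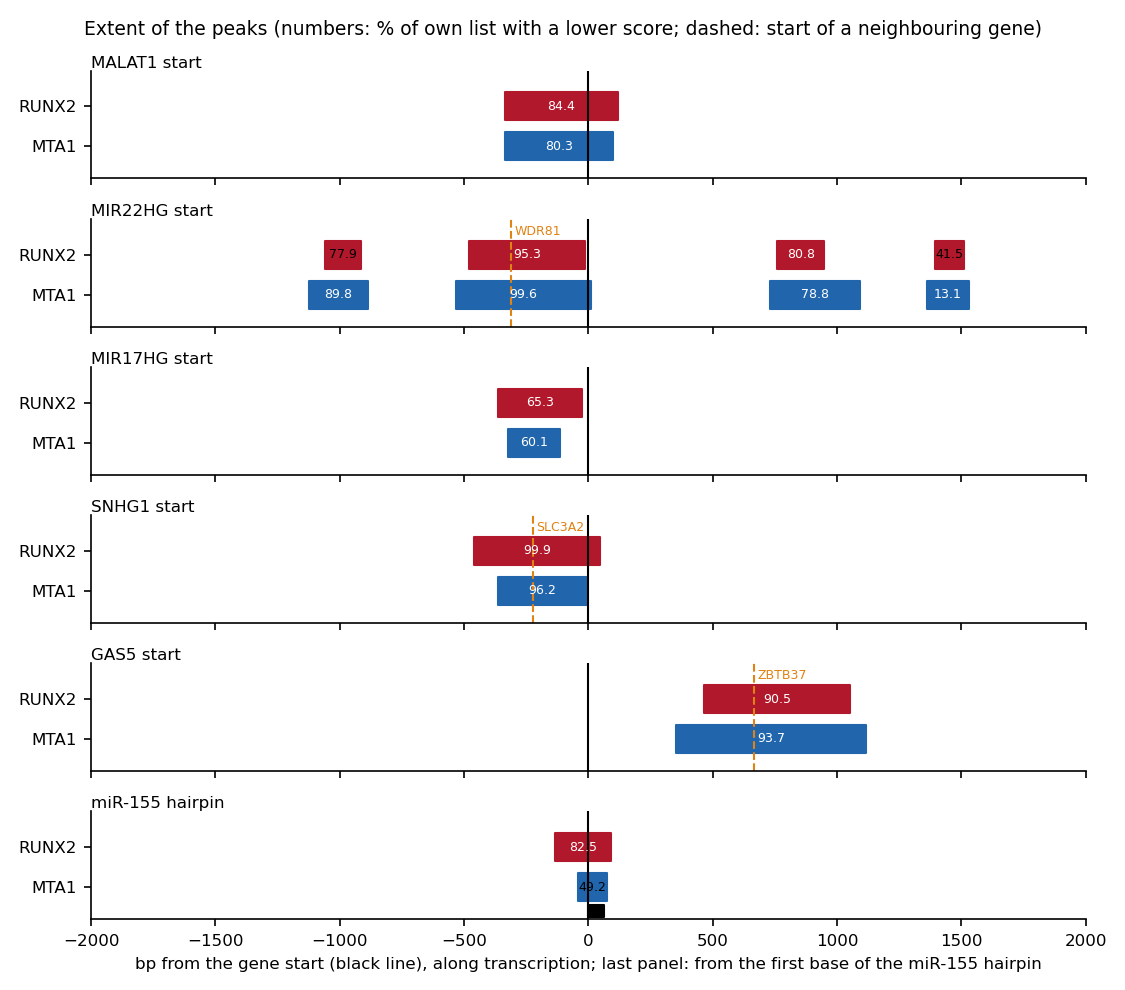
Extent of RUNX2 (red) and MTA1 (blue) peaks in bp from the start of 5 genes and from the first base of the miR-155 hairpin (black bar), with the percentage of the own list that scored lower written on each peak. Dashed lines are starts of neighbouring genes: they lie inside the peaks at MIR22HG (WDR81), SNHG1 (SLC3A2) and GAS5 (ZBTB37).

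SNHG1, a host of C/D box snoRNAs, carried the highest-ranked RUNX2 peak of the 9 genes. The peak at chr11:62855840-62856344 scored 84.0, which was place 36 counted from the highest score, so 99.9% of RUNX2 peaks scored lower. The MTA1 peak at chr11:62855892-62856249 lay within it and scored 32.5 (96.2%). SNHG1 shares this place with SLC3A2, which encodes the heavy chain of an amino acid transporter and starts 224 bp away on the opposite strand. The start of both genes was under the RUNX2 peak, and the signal cannot be assigned to either gene. Both peaks were centred nearer to the SLC3A2 start, 17 bp from it for RUNX2 and 38.5 bp for MTA1.

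The strongest MTA1 peak near SNHG1 lay elsewhere. It covered 1227 bp at chr11:62840566-62841792, 14093 bp from the SNHG1 start, over WDR74, a ribosome biogenesis gene, and RNU2-2, a gene of U2 spliceosomal RNA. It scored 57.9, place 130 of the MTA1 list (99.7%), while the RUNX2 peak there had a rank of 86.3%. The order of the lists was thus opposite at these neighbouring places, with RUNX2 ranked higher at the SNHG1 start and MTA1 at WDR74. A further overlapping pair lay at STX5, which encodes a Golgi syntaxin, and its divergent transcript (83.1% RUNX2, 89.4% MTA1). The remaining RUNX2 peaks, at 64.1% and 20.8%, lay within SLC3A2 and had no MTA1 partner. None of the 9 snoRNA genes annotated inside SNHG1 lay under a peak, and 98.8% of the span was a single stretch with no peak. The share of all snoRNA genes under a peak was not taken, so nothing particular to SNHG1 is read from this count.

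GAS5 had a single RUNX2 peak, at chr1:173867994-173868580, with a score of 24.0 (90.5%). An MTA1 peak at chr1:173867928-173868691 contained it and scored 26.9 (93.7%). The peaks lay inside GAS5, 465 and 354 bp downstream of its start, and covered the start of ZBTB37, a zinc finger gene on the opposite strand whose start is 665 bp into GAS5. The promoter window of GAS5 itself was free of peaks in both lists, so the pair lay nearer to the start of ZBTB37 than to that of GAS5. The 2 remaining MTA1 peaks were weak (14.7% and 4.94%) and lay beyond the far end of the gene. As at SNHG1, none of the 11 nested snoRNA genes lay under a peak, and this count too has no share over all snoRNA genes beside it.

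**Figure D4:**
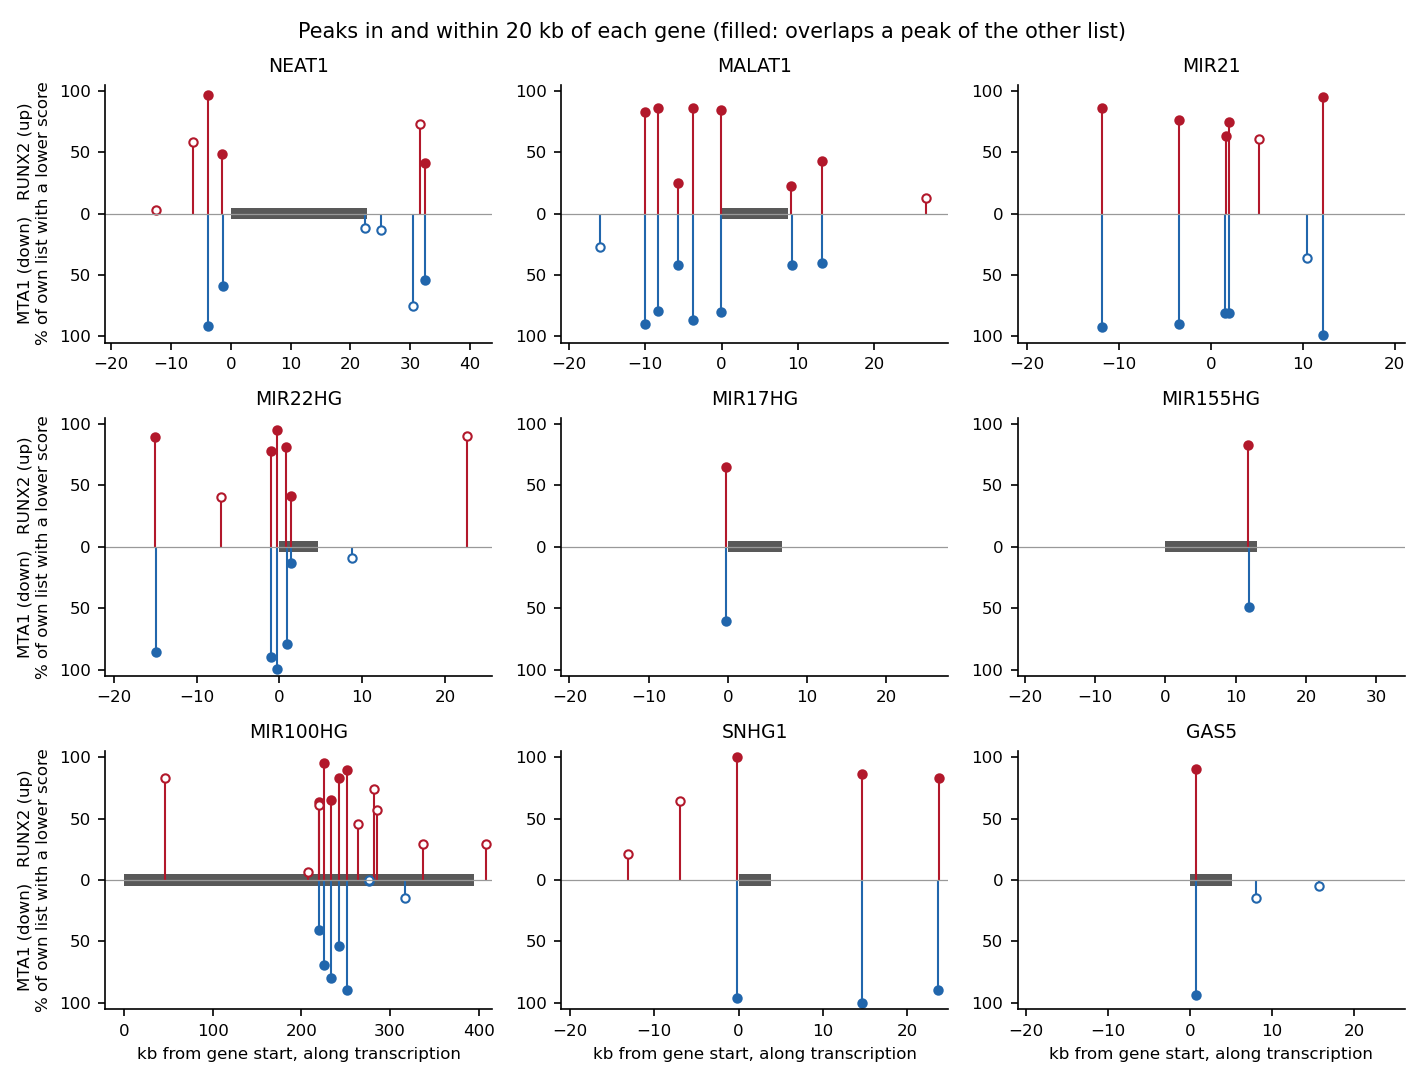
Position of every RUNX2 (up, red) and MTA1 (down, blue) peak in kb from the start of each gene along transcription, with the percentage of the own list that scored lower as height. Grey bars are gene spans and filled circles overlap a peak of the other list; peaks gather around the start of MIR22HG and upstream of MALAT1, while the body of NEAT1 holds a single MTA1 peak of low rank.

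NEAT1 and MALAT1 are neighbours on chromosome 11, and the bodies of both genes held few peaks. NEAT1 spans 22.7 kb, of which 22.4 kb (98.4%) was a single stretch with no peak. The lone peak inside it was an MTA1 peak of the narrowest width in that list, near the far end of the gene, with a rank of 11.8%. The strongest peaks lay upstream: RUNX2 at chr11:65418674-65419290 with a score of 38.8 (96.8%) and MTA1 at chr11:65418719-65419339 with a score of 23.5 (91.3%), sharing 572 bp (the RUNX2 peak ended 3508 bp before the gene). A weaker pair lay nearer, with its RUNX2 peak 1393 bp before the gene (48.2% RUNX2, 59.0% MTA1). Downstream, an overlapping pair lay over the pseudogene FAUP4 (41.0% and 53.7%), with 1 RUNX2 and 2 MTA1 peaks without a partner also past the gene. The other 2 lone RUNX2 peaks lay farther upstream than the pairs. The direction of NEAT1 was taken from general knowledge, since the tables give it no start.

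MALAT1 had 8 peaks in each list, 7 of them overlapping, the highest number of pairs among the 9 genes. A pair covered its upstream start, with the same first base in both lists: RUNX2 at chr11:65497401-65497859 with a score of 17.5 (84.4%) and MTA1 at chr11:65497401-65497838 with a score of 15.3 (80.3%). Another 4 pairs were spread upstream, the farthest with its RUNX2 peak 9887 bp before the start. Their RUNX2 ranks, from the farthest to the nearest, were 82.2%, 85.5%, 24.7% and 86.2%, and the MTA1 ranks were 90.1%, 79.6%, 41.8% and 86.8%. The farthest lay within LINC02736, a noncoding gene, and its MTA1 peak was the only one at MALAT1 in the top 10%. Past the end of the gene, 2 weak pairs had ranks of 22.6% to 43.0%, and the first of them lay in TALAM1, the antisense partner of MALAT1. The rest of the MALAT1 span, 98.6% in a single stretch, held no peak, and its downstream start was among the windows without one.

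Among the microRNA genes with a start in the promoter table, MIR22HG had the highest-ranked peaks within 1 kb of its start. Both lists had a peak there: RUNX2 at chr17:1716223-1716689 with a score of 33.5 (95.3%) and MTA1 at chr17:1716199-1716744 with a score of 54.3 (99.6%, place 182). The MTA1 peak was the highest-ranked of the microRNA genes. WDR81, which encodes a protein of endosome maturation, starts 313 bp away on the opposite strand, and its start lay under both peaks. The MIR22HG start lay under the MTA1 peak only, and the RUNX2 peak ended 13 bp before it. Both peaks were centred nearer to the WDR81 start, 67 bp from it for RUNX2 and 51.5 bp for MTA1. Here too the signal cannot be assigned to either gene of the divergent pair.

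A further 3 places near the MIR22HG start carried overlapping peaks. On the WDR81 side the ranks were 77.9% for RUNX2 and 89.8% for MTA1. Inside MIR22HG the pair nearer the start had ranks of 80.8% and 78.8%, and the next had 41.5% and 13.1%. The last pair was the nearest to the miR-22 hairpin, 713 bp from it in the RUNX2 list and 692 bp in the MTA1 list. Another pair lay farther upstream within WDR81, with its RUNX2 peak 14858 bp from the start (88.9% and 85.4%). A RUNX2 peak 22.7 kb from the start on the other side ranked at 89.8% and was the highest-ranked RUNX2 peak of the 9 genes without an MTA1 partner.

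MIR21 is 72 bp long and had no peak over it. Its 6 RUNX2 and 6 MTA1 peaks lay within 11660 bp before and 11992 bp after it, and 5 of each overlapped. The pairs upstream lay inside VMP1, an autophagy gene in whose last part MIR21 is found. The farther of them ranked at 85.9% for RUNX2 and 92.2% for MTA1, and the nearer, whose RUNX2 peak ended 3297 bp before MIR21, at 76.1% and 90.0%. Close behind MIR21, pairs 1.70 and 1.95 kb past its start ranked at 63.5% and 74.8% for RUNX2 and at 80.7% and 80.5% for MTA1. The pair 12.2 kb past its start was the strongest: RUNX2 at chr17:59853329-59853532 scored 32.7 (place 3092) and MTA1 at chr17:59853309-59853720 scored 42.3 (98.4%, place 668). In all 5 pairs at MIR21 the MTA1 peak had the higher rank in its list, and the nearest start of the promoter table to the strongest RUNX2 peak, that of the tubulin gene TUBD1, was 39411 bp away.

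MIR17HG had 1 peak in each list, and both lay just before its start. The RUNX2 peak at chr13:91347323-91347663 ended 24 bp before the start and scored 9.14 (65.3%). The MTA1 peak at chr13:91347363-91347572 was contained in it, ended 115 bp before the start and scored 9.13 (60.1%). These were moderate peaks in both lists, and MIR17HG had no other peak within 20 kb. The 6 hairpins of the cluster lay at least 2942 bp downstream of the RUNX2 peak, and none was under a peak. Unlike SNHG1, MIR22HG and GAS5, no neighbouring start lay under the pair.

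MIR155HG showed a different arrangement, with no peak near its start and 1 pair over the microRNA itself. The RUNX2 peak at chr21:25573847-25574071 scored 16.1 (82.5%) and the MTA1 peak at chr21:25573937-25574053 scored 7.54 (49.2%). Both peaks contained the whole 65 bp hairpin of miR-155. The RUNX2 peak reached 133 bp before and 27 bp after it, and the MTA1 peak 43 and 9 bp. Of the 14 hairpins in the 9 genes this was the only one under a peak. Hairpins touched by both lists were 2.09% of the 1913 microRNA genes. A single hairpin of 14 is too few to set against this share, and the difference was not tested. The RUNX2 rank exceeded the MTA1 rank by 33.3 percentage points here, the largest gap of the 31 pairs.

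MIR100HG is by far the longest of the 9 genes, with a span of 394.5 kb, and hosts miR-125b-1, let-7a-2, miR-10526 and miR-100. It had 13 RUNX2 peaks, 12 of them inside, and 8 MTA1 peaks, all inside. The RUNX2 peak nearest to a start was 7945 bp from it, and a stretch of 160.3 kb held none. The 5 overlapping pairs were all found between 219.7 and 251.9 kb from the most upstream start. Their RUNX2 ranks, in the direction of transcription, were 63.8%, 95.2%, 65.0%, 82.8% and 89.1%, and the MTA1 ranks were 40.6%, 69.1%, 79.4%, 53.8% and 89.3%. The strongest RUNX2 peak, at chr11:122197085-122197385, scored 33.3, while its MTA1 partner scored 11.1.

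The hairpins of MIR100HG lay beyond this cluster of pairs and under no peak. The nearest peak of any was an MTA1 peak 115 bp from the let-7a-2 hairpin, and at a score of 3.02 (place 42524) it was among the lowest of its list. The weak MTA1 peak over a start (14.9%) was the nearest to the miR-125b-1 hairpin, at 5691 bp. The 8 RUNX2 peaks of MIR100HG without a partner ranged from 6.85% to 83.0%, and the highest of them lay 46.8 kb from the upstream start.

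Over the 9 genes together, 31 of the 48 RUNX2 peaks overlapped an MTA1 peak, which was 64.6% (95% exact Clopper-Pearson interval 49.5% to 77.8%), against 45.4% of the whole list. For MTA1 the share was 31 of 42, or 73.8% (58.0% to 86.1%), against 65.5%. Peaks near the same gene are not independent, and the genes were chosen with earlier results of these data known. The difference from the lists was not tested. The member peaks also ranked high: the median rank was 73.5% for RUNX2 and 72.2% for MTA1, where a list as a whole has 50%. Peaks near genes in general were not ranked as a group, so this is not read as particular to the 9 genes. Over each whole list overlap was more frequent among high scores, with 90.6% of RUNX2 and 99.1% of MTA1 peaks in the top 10% overlapping.

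Overlapping peaks of the 9 genes ranked above those that stood alone. In the RUNX2 list the medians were 82.5% for the 31 overlapping peaks and 56.7% for the 17 others. In the MTA1 list they were 80.5% and 13.5%, the latter over 11 peaks. All 6 RUNX2 and all 8 MTA1 peaks in the top 10% overlapped. None of the 6 RUNX2 and 7 MTA1 peaks of the narrowest width in their list (99 and 116 bp) did. Peaks of that width seldom overlapped over the whole lists either, in 12.4% of cases for RUNX2 and 28.1% for MTA1, so nothing particular to the 9 genes is read from these small counts. Lone peaks were thus mostly weak in the MTA1 list, whereas those of the RUNX2 list reached 89.8%.

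**Figure D5:**
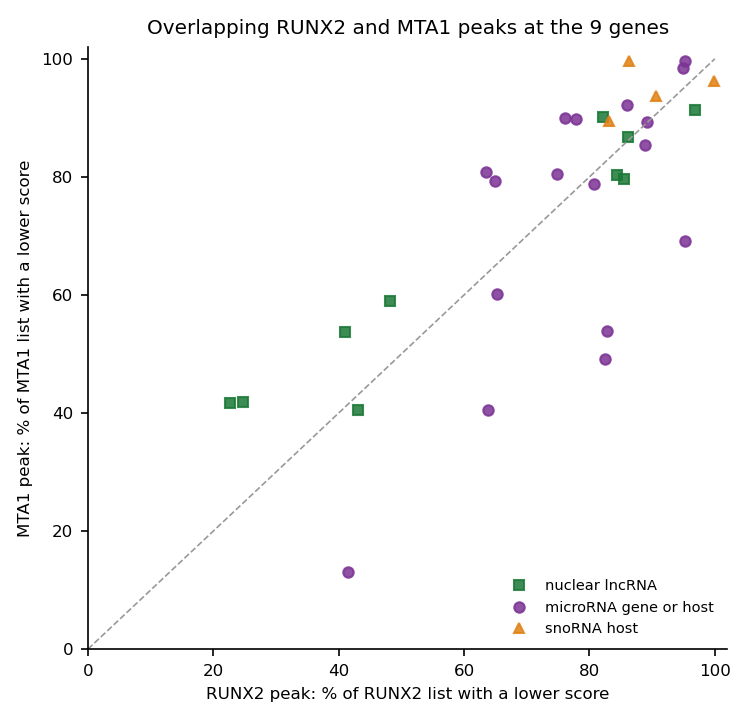
Rank of the MTA1 peak (vertical axis) against the rank of the RUNX2 peak (horizontal axis), each as the percentage of its own list that scored lower, for the 31 overlapping pairs at the 9 genes. Marks give the kind of gene and the dashed line marks equal ranks: 18 pairs lie above it and 13 below, and 17 lie within 10 points of it.

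Within the 31 pairs neither list was ranked higher throughout. RUNX2 had the higher rank in 13 and MTA1 in 18, with a median difference of -3.17 percentage points (RUNX2 minus MTA1), and in 17 pairs the ranks lay within 10 points. The pairs in which RUNX2 stood higher by more than 20 points were the one over miR-155, 3 of the 5 at MIR100HG and the weak one inside MIR22HG. No pair had MTA1 higher by as much, the largest such gap being 19.1 points within TALAM1. The pairs shared a median of 191 bp and at least 95 bp.

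A further list of 38 genes known for noncoding RNAs was set beside the 9, although the annotation classes TUG1 among them as protein-coding. All 38 were found in the annotation, and within 20 kb RUNX2 peaks were present at 36, MTA1 peaks at 37 and overlapping peaks at 33. Under the same rule the shares were 66.3%, 57.8% and 48.5% of all annotated genes and 84.4%, 79.7% and 71.0% of protein-coding genes. Of the 38, 12 had a RUNX2 peak in the top 10% of the list and 12 an MTA1 peak. That was 31.6% in each list, close to the 27.3% and 28.1% of protein-coding genes. Among lncRNA genes it was 14.5% and 11.6%. These differences were not tested. The median density was 4.54 RUNX2 and 4.07 MTA1 peaks per 100 kb, below that of the 9 genes and above that of protein-coding genes. UCA1 was the only gene of the list with no peak. The highest RUNX2 ranks were those of MIR4435-2HG (99.0%), PVT1 (96.9%) and MIR210HG (96.5%), all lower than the 99.9% of SNHG1. The genes most like SNHG1 in the ranks of their strongest peaks were PVT1, SNHG15 and SNHG29, whose larger difference from it in either list was 3.45, 6.77 and 7.81 points. The MTA1 rank used for SNHG1 was the 99.7% of the peak over WDR74, not that of the peak at its start. PVT1 had 31 RUNX2 and 28 MTA1 peaks from which its strongest were taken. SNHG15 and SNHG29 are also snoRNA hosts. The other genes of the list whose names begin with SNHG differed from SNHG1 by 13.6 to 44.5 points.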

How the data were processed

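CUT&Tag peaks of RUNX2 and MTA1 in MDA-MB-231 cells were analysed, 1 library each. The authors called peaks in each library and deposited each peak's position and a score whose scale, threshold and control are not given in the sources used here. The submitters' processing notes name CASAVA 1.4, Bowtie 0.12.8, MACS, MACS2 and the build hg19. The positions were checked on the peaks: in the 5 Mb either side of each gene, 11.7% to 41.4% of peaks lay within 1 kb of where a protein-coding gene of GRCh38.p14 begins or ends, against 0% to 12.1% after moves of 100 kb. In 18 of 18 cases (9 genes, 2 lists) the listed positions gave the higher share, so the lists were read as GRCh38. Coordinates of genes are not given, and those of peaks and of printed sequences are 1-based. Strand and starts came from the RefSeq promoter and microRNA tables.

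The 17 RUNX2 and 15 MTA1 mitochondrial peaks were left out. Peaks overlapped when they shared at least 1 bp. Ranks were taken within each list. Read depth is unknown, so intervals cover counting error over peaks only. No test was made, as peaks and genes are not replicates. The genes, the further list and the alternatives were chosen with earlier results of these data known. The named genes are the 9, the small RNA genes inside them, genes over or nearest to their peaks in the top 10%, and 6 ranks of the further list, the 3 highest for RUNX2 and the 3 nearest to SNHG1. Genes over or near other peaks (FAUP4, TALAM1, STX5) were named after their values were seen. The step that finds overlaps was tested on simulated data: of the peaks planted as overlapping among 681 RUNX2 peaks of chromosome 21, 100% were found again. The work used pandas 2.3.3, numpy 2.4.6, matplotlib 3.10.9 and scipy 1.17.1 under Python 3.11.15.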

Additional observations from a re-analysis of the deposited data

How the results depend on the processing

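All 9 genes kept RUNX2, MTA1 and overlapping peaks with windows of 5 or 50 kb, with peaks within 500 bp merged, without peaks of the narrowest width, and, for overlap, with at least 50% of both peaks shared or centres within 200 bp. Inside the spans, 6 genes kept a RUNX2 peak that overlapped an MTA1 peak. At SNHG1 this MTA1 peak lay 7 bp outside the span. Overlapping peaks were left at 8 genes after dropping peaks below the median score of their list. They were left at 7 genes when each list was limited to its 10000 highest scores. The number of peaks moved with window and score. The 48 RUNX2 peaks became 18 inside the spans, 29 within 5 kb, 73 within 50 kb and 14 among the 10000 highest. The 42 MTA1 peaks became 15 inside the spans, 26 at or above the median score and 20 among the 10000 highest. The overlapping share of RUNX2 peaks was 85.7% (12 of 14) among the 10000 highest and 54.2% to 75.9% otherwise. That of MTA1 peaks was 88.5% at or above the median score, 88.6% without the narrowest peaks, and 60.0% to 77.0% otherwise. Of the 18 counts per gene and list, 6 became 0 inside the spans, 1 at the median score and 4 among the 10000 highest. No paired analysis was possible because each antibody had 1 library and no result came from a test. The unknown read depth limits what a missing peak means.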
